A study of Mus musculus with 6 samples.

Results

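Keratin genes were taken as every gene symbol of the deposited table made of Krt followed by digits alone, which gave 43 of its 37060 genes. Of these, 5 are keratins of simple (1-layered) epithelia, 18 of stratified epithelia and 15 of the hair shaft and its sheaths, and 5 were placed in none of these classes. The 6 RNA sequencing libraries came from whole uterus on gestation day 5, from 3 SRC-2d/d mutant mice and 3 SRC-2f/f control mice, with 1 library per mouse. SRC-2 is a steroid receptor coactivator encoded by Ncoa2, and the series asked which genes it governs around embryo implantation. The stretch of Ncoa2 that was deleted, the Cre driver and the ages of the mice were not stated in the sources at hand. The genes were compared between SRC-2d/d and SRC-2f/f uteri.

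Keratins are the intermediate filament proteins of epithelial cells, and a filament is always built from a type I chain paired with a type II chain. Simple epithelia such as the lining and glands of the uterus use Krt8 and Krt18 as the main pair, to which Krt7 and Krt19 are added. Stratified epithelia use other pairs in each layer, Krt5 with Krt14 in basal cells and Krt4 with Krt13 in the upper layers of wet mucosa, and the hard keratins build the hair shaft. In a whole uterus, fewer cells of a type and less RNA per cell cannot be told apart.

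The libraries held 129905950 to 195782326 reads in genes, and the values below are normalized counts, that is, reads divided by a size factor of the library. A count of 3 reads, the limit that a count of 0 allows, equals 2.48 to 3.41 normalized counts. Ncoa2 had 7620.4, 6667 and 7409 in the mutants, against 13208, 13090.4 and 14495 in the controls. The groups did not overlap, and the mutants held 53.2% of the control mean (log2 difference -0.91 ± 0.20 SE, limma adjusted p 0.00953). Without control 2 or control 3 the adjusted p was 0.0583 and 0.0585. The exact two-sided permutation p was 0.1, and groups of 3 mice cannot give a smaller one. Along the first principal component over 17979 genes (mean 100 or more), mutant 2 lay at 28.9 and mutants 1 and 3 at 84.2 and 97.0, against -85.9 to -49.3 for the controls.

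Promoter sequences of 4 keratins that were higher in the mutants are shown so that the motifs counted over the family can be read in them. RefSeq windows of 250 bases before the transcription start (build GRCm38.p6) were at hand for 29 of the 43 keratins, and for 8 of the 14 called below. Krt7, Krt8 and Krt18 were chosen as the abundant simple keratins with a window, Krt8 and Krt18 also because they form a filament pair and are neighbours on the chromosome, and Krt12 as a stratified keratin with a TATA box. In the order shown, the windows are chr15:101412153-101412402 (plus strand), chr15:102004343-102004592 (minus strand), chr15:102027966-102028215 (plus strand) and chr11:99422260-99422509 (minus strand), each written in the direction of its gene. Capitals mark the TATA box TATAAA and, read on either strand, the binding site of Sp1-like factors known as the GC box, GGGCGG. Krt8 and Krt18 held neither.
Krt7: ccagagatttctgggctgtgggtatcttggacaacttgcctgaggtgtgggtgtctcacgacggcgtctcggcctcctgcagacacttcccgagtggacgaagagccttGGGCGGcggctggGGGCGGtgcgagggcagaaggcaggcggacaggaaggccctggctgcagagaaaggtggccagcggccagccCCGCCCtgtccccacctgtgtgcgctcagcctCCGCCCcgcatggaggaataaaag
Krt8: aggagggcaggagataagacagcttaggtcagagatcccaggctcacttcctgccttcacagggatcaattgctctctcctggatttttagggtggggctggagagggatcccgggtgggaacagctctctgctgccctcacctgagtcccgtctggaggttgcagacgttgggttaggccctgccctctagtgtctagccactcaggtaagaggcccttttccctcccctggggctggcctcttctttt
Krt18: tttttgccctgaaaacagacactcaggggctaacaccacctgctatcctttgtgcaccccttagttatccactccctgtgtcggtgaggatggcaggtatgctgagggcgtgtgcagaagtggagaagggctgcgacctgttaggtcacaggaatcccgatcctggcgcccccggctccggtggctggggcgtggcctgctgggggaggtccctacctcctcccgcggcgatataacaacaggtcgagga
Krt12: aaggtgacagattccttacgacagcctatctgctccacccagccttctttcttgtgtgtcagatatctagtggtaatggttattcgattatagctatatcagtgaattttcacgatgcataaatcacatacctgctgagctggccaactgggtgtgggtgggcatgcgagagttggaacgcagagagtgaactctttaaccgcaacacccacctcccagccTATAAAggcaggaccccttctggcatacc

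Searched on both strands, TATAAA stood in a window of 10 of the 29 keratins (34.5%), against 14.3% of 27025 genes with a window. The called keratins among the 10 were Krt12 and Krt84. In Krt12 it lay 29 to 24 bases before the start, and in Krt84 206 to 201 bases before it. In Krt72 it also lay far from the start, at 203 to 198 bases. GGGCGG stood in 2 of the 29, Krt7 with 4 copies and Krt75, against 35.4% of all genes. The AP-1 motif TGANTCA stood in Krt13 alone, against 7.82% of all genes. Krt13 has windows at separate starts, and its 3 places were spread over them, so that no single window held all 3. No keratin window held the palindromic estrogen response element, GGTCA and TGACC with 3 bases between them (0.0666% of all genes), the palindromic progesterone response element (0.440%) or the grainyhead-like motif AACCGGTT (0.137%). None of these motifs contains another, and a match or its lack describes these letters in this window only.

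Across the family, 11 of the 43 keratins (25.6%) were higher in SRC-2d/d uteri at a limma adjusted p under 0.05, against 5.34% of the 36154 genes tested, and 3 (6.98%) were lower, against 4.08%. The other 29 were not called. The 3 mutants lay wholly above the 3 controls for 13 of the 43 keratins, against 13.4% of all genes tested. They lay wholly below for 5 of the 43, near the 12.1% of all genes tested. The median log2 difference was 1.03 over the family and -0.01 over all genes tested. In 8 keratins 1 of the groups had no read, and with these set at the bound that 3 reads per library give, the family median was 0.93. edgeR on the recovered reads tested 25 keratins and called 11 higher, against 6.75% of its genes, and 3 lower, against 3.93%. Krt20 stood in place of Krt4 among the edgeR calls. The classes differed: 4 of 5 simple, 4 of 18 stratified, 2 of 15 hair and 1 of 5 unplaced keratins were higher.

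The counts rested in part on single libraries and on how the spread was estimated. Without control 3, 7 keratins were called higher and 1 lower. DESeq2 on the recovered reads called 15 higher and 4 lower. With the trend and the robust option of eBayes, 13 were called higher and 3 lower. When the spread was not allowed to depend on the mean level (eBayes without trend), 4 keratins were called higher, namely Krt7, Krt8, Krt19 and Krt87, and 0 lower, with 5 lower at an unadjusted p under 0.05 in that fit. These 4 were called in all 20 alternative analyses.

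**Figure D1:**
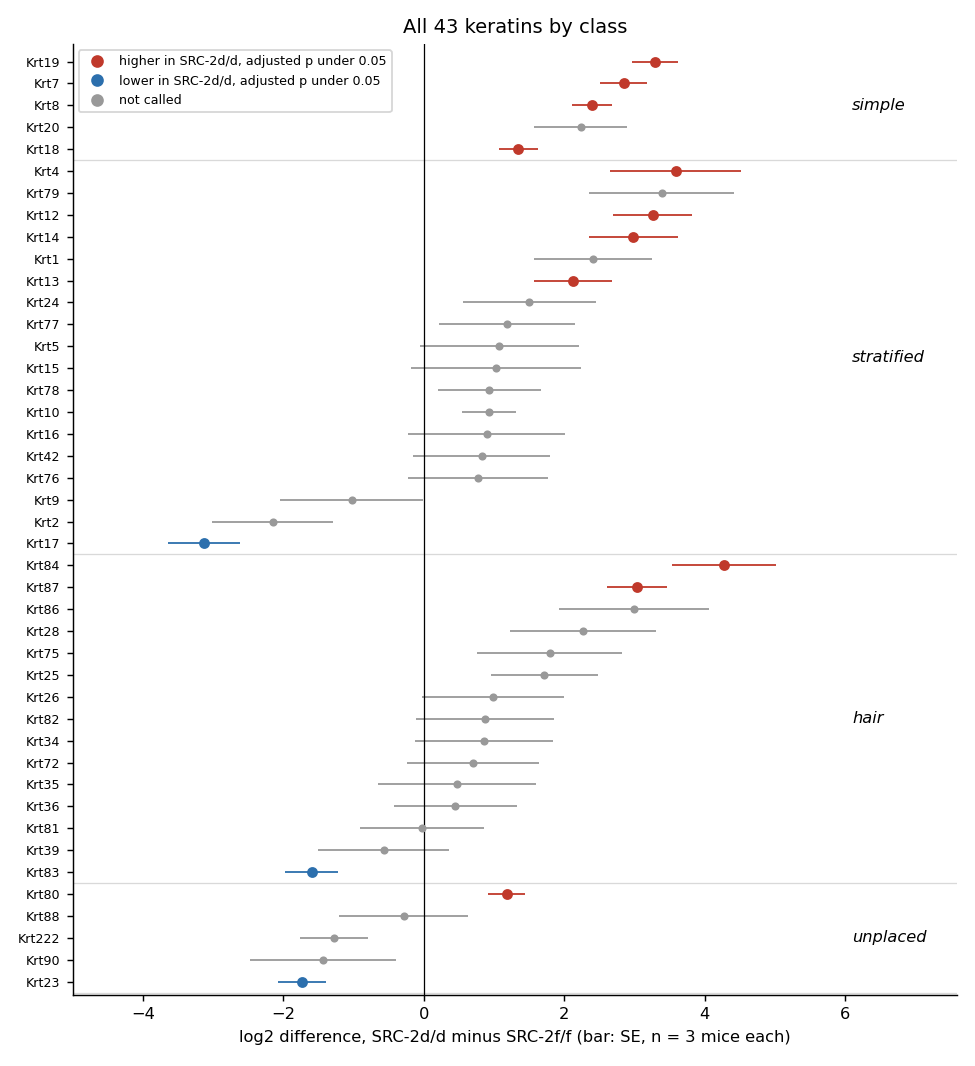
Log2 difference of each of the 43 keratins, SRC-2d/d minus SRC-2f/f (horizontal axis, bars are standard errors, n = 3 mice each), grouped by class and ordered by size. Called genes are coloured, and 4 of the 5 simple keratins lie right of 0 among the called ones, with short bars.

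The simple keratins held most of the family's normalized counts and were the class with the largest share of calls. Their summed normalized counts were 273910.0, 155335 and 411415 in the mutants, against 47385, 56698 and 50254 in the controls, a ratio of means of 5.45. The share of the family's normalized counts held by simple keratins, in percent, was 96.2, 94.9 and 97.4 in the mutants, against 84.9, 90.1 and 83.1 in the controls. The whole family summed to 284824, 163631 and 422516 in the mutants, against 55831, 62932 and 60490.4 in the controls, a ratio of 4.86. The sums of the other classes differed less between the groups, with ratios of 1.61 for stratified, 1.23 for hair and 1.06 for unplaced keratins. These sums carry no test.

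Krt19, the smallest type I keratin and a marker of ductal and lining epithelia, had normalized counts of 77854, 45568 and 131806 in the mutants, against 6557, 10496 and 7188 in the controls. It rose 10.5-fold in the mutants (log2 difference 3.29 ± 0.33 SE, limma adjusted p 2.23e-05). Every mutant stood above every control, with mutant 2 the lowest mutant and control 2 the highest control.

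Krt7, a type II keratin of glandular and ductal epithelia, had 63954, 25918 and 80871 in the mutants, against 7048, 7667 and 6651 in the controls. The groups did not overlap and mutant 2 was again the lowest mutant. Krt7 rose 7.99-fold (log2 difference 2.85 ± 0.33 SE, limma adjusted p 9.42e-05), and 10.2-fold without mutant 2.

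Krt8, the type II partner in the main pair of simple epithelia, had 72771, 46633 and 114652 in the mutants, against 13847, 14588 and 13155 in the controls. The controls lay close together while the mutants spread widely, all of them above the controls. Krt8 rose 5.63-fold (log2 difference 2.40 ± 0.28 SE, limma adjusted p 9.995e-05).

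Krt18, the type I partner of Krt8, had 59264, 36707 and 83864 in the mutants, against 19892, 23921 and 23191 in the controls. Its groups did not overlap, and it rose 2.68-fold (log2 difference 1.35 ± 0.28 SE, limma adjusted p 0.00664). The call was lost without control 3, at an adjusted p of 0.0519, and in eBayes without trend, at 0.131.

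Krt20, a type I keratin of intestinal and urothelial lining cells, had 67.02, 509 and 222.5 in the mutants, against 40.4, 24.6 and 69.3 in the controls. Mutant 1 lay below control 3, so the groups overlapped. It missed the threshold (log2 difference 2.23 ± 0.67 SE, limma adjusted p 0.0516), while edgeR gave an adjusted p of 0.0411.

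**Figure D2:**
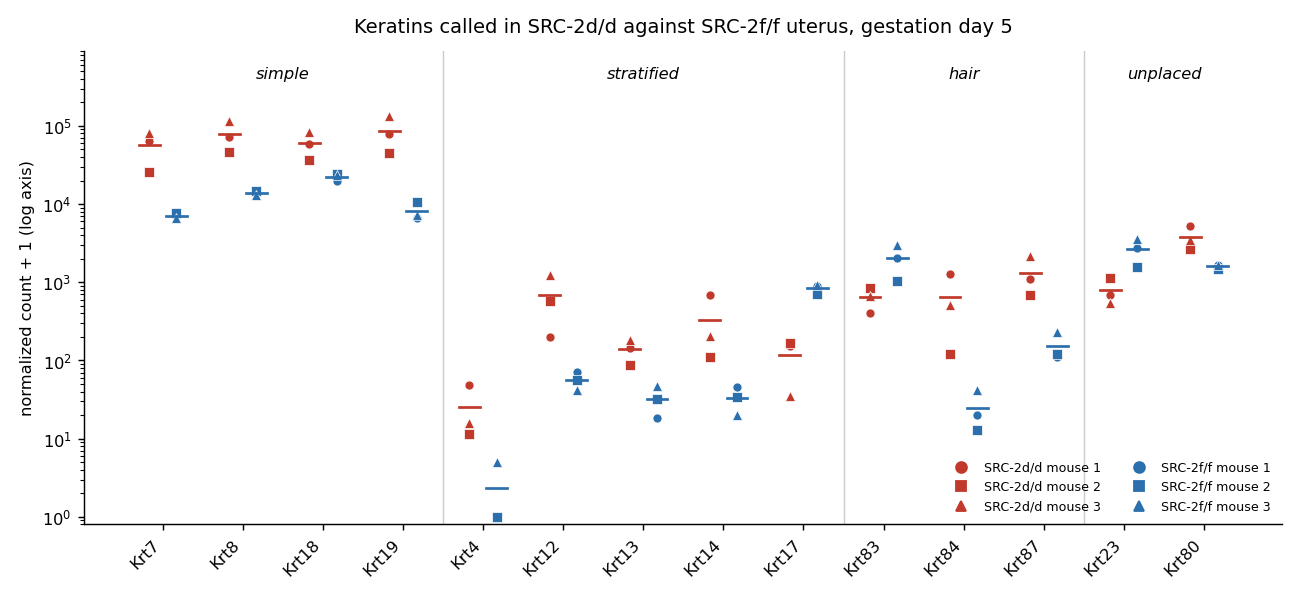
Normalized counts + 1 (vertical log axis) of the 14 called keratins in each mouse, with SRC-2d/d left of SRC-2f/f. Symbols tell the mice apart and horizontal lines are group means; the 3 mutants lie wholly above or wholly below the 3 controls in each of the 14 genes.

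The simple keratins did not rise in proportion, so their mix differed between the genotypes. Per kilobase of transcript, Krt19 averaged 53982, Krt18 41715, Krt8 39846 and Krt7 13902 normalized counts in the mutants. In the controls the order was Krt18 at 15543, Krt8 at 7080.4, Krt19 at 5127 and Krt7 at 1739.7. Within each control Krt18 was the highest, whereas within each mutant Krt19 was. Krt8 and Krt18 lay close in the mutants and apart in the controls: the ratio of Krt8 to Krt18 per kilobase was 0.901, 0.932 and 1.00 in the mutants and 0.511, 0.448 and 0.416 in the controls. For Krt19 to Krt18 the ratio was 1.20, 1.13 and 1.43 in the mutants and 0.301, 0.400 and 0.283 in the controls. The groups overlapped in neither ratio. A ratio within a library does not depend on the scaling. In the transcripts of GENCODE M21, 26.9% of the 50-base stretches of Krt8 also occur in its pseudogene Krt8-ps. For Krt18 and Krt19, 0.72% and 0% occur in other genes. How reads shared between genes were counted was not stated, so the level of Krt8 beside Krt18 and Krt19 is uncertain. Krt7 was divided by a transcript of 4.094 kilobases, and Krt8, Krt18 and Krt19 by 1.958, 1.437 and 1.576 kilobases. The Krt7 level, and through it each share of the simple keratins below, depends on the transcript taken.

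As a share of the simple keratins per kilobase, Krt18 made up 28.4% ± 1.83 in the mutants and 52.7% ± 2.44 in the controls (SD, n = 3 each). Krt19 made up 35.5% ± 2.14 in the mutants and 17.2% ± 2.77 in the controls. The share of Krt8 was 26.8% ± 1.1 in the mutants and 24.1% ± 1.97 in the controls. Over the 43 keratins, the ratio of type II to type I normalized counts, both per kilobase, averaged 0.576 ± 0.026 in the mutants. In the controls it averaged 0.457 ± 0.048 (SD, n = 3 each). Protein was not measured.

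**Figure D3:**
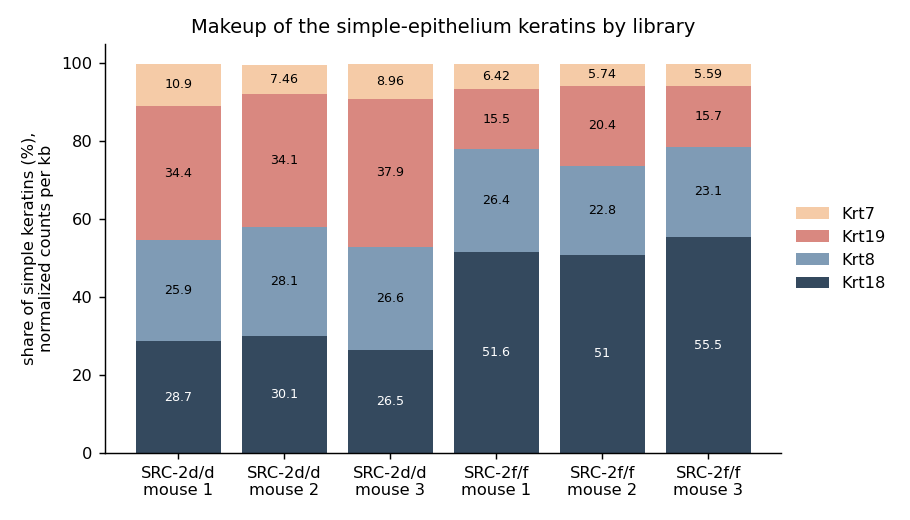
Share of each simple keratin in the sum of the simple keratins (vertical axis, percent of normalized counts per kilobase) in the 3 SRC-2d/d and 3 SRC-2f/f libraries. Krt18 takes 26.5% to 30.1% in the mutants and 51.0% to 55.5% in the controls, while Krt19 takes 34.1% to 37.9% in the mutants and 15.5% to 20.4% in the controls. Krt20, under 1%, is not drawn.

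Markers of epithelium other than keratins moved in the same direction. Of 14 such genes, among them Cdh1 and Epcam, 12 were called higher, against 5.34% of all genes tested, and none lower, and Cldn4 and Spint1 were not called. Their summed normalized counts were 402394 to 590505 in the mutants, against 157418 to 179409 in the controls. Set against the mean log2 level of these 14 genes in each library, the Krt19 difference was 1.67 ± 0.33 SE (limma adjusted p 0.000378), that of Krt7 was 1.22 ± 0.32 SE (0.00368) and that of Krt8 was 0.77 ± 0.31 SE (0.0365). The subtraction lowers the log2 difference of every gene by the same amount. On this scale 1.63% of all genes tested were higher and 63.3% were lower in the mutants. Krt18 turned to -0.28 ± 0.31 SE (adjusted p 0.432), so its rise was not shown to exceed that of the other epithelial genes. Its ratio to their geometric mean was 2.41, 1.90 and 2.86 in the mutants and 2.39, 3.03 and 3.22 in the controls, with the groups overlapping.

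Relative to the epithelial markers, 9 of the 14 called keratins kept their direction and their call. Krt12, Krt84 and Krt87 stayed higher, at 1.64 ± 0.55 SE, 2.65 ± 0.69 SE and 1.40 ± 0.42 SE, with limma adjusted p-values of 0.0157, 0.00309 and 0.00859. Krt17, Krt23 and Krt83 were lower still, as the subtraction makes every lower gene. On that side 63.3% of all genes tested also lay. Krt4, Krt13 and Krt14 kept their direction but not their call, with adjusted p-values of 0.0737, 0.44 and 0.0568. Krt80 turned to -0.44 ± 0.31 SE (adjusted p 0.215).

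**Figure D4:**
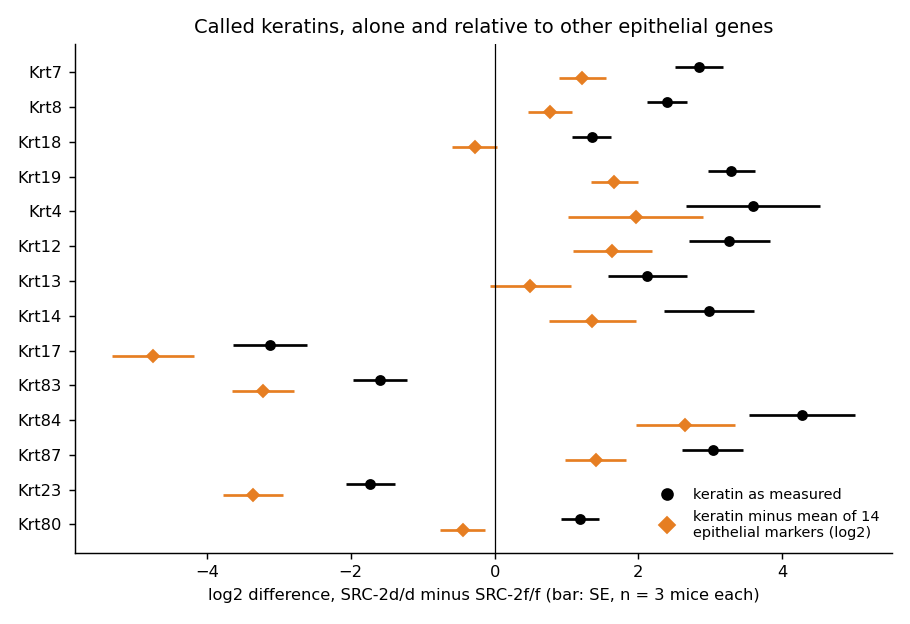
Log2 difference, SRC-2d/d minus SRC-2f/f, of the 14 called keratins as measured (black circles) and after subtracting the mean log2 level of 14 other epithelial genes in the same library (orange diamonds). Bars are standard errors, n = 3 mice each; Krt18 and Krt80 move across 0 to -0.28 and -0.44, and Krt19, Krt7, Krt8, Krt12, Krt84 and Krt87 stay above it with adjusted p under 0.05.

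Among the 18 stratified keratins, 4 were higher (22.2%, against 5.34% of all genes tested) and 1 was lower (5.56%, against 4.08%), and 13 were not called. Per kilobase each lay below Krt7, Krt8, Krt18 and Krt19 in both group means. The class median was 1.05 on the log2 scale, or 0.98 with the 3 members that had no read in 1 group set at their bound. The higher count was 2 without mutant 3, control 1, control 2 or control 3, and 0 in eBayes without trend, where 6 were higher at an unadjusted p under 0.05, while edgeR called 3.

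Krt12, the type I keratin of the corneal epithelium, had normalized counts of 201, 583 and 1248 in the mutants, against 69.4, 55.6 and 40.7 in the controls. It rose 12.3-fold in the mutants, with no overlap (log2 difference 3.26 ± 0.56 SE, limma adjusted p 0.0021). Mutant 3 was the highest, and without it the rise was 7.09-fold.

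Krt13, the type I keratin of upper layers in mucosa, had 144, 85.3 and 184 in the mutants, against 17.6, 31.01 and 45.8 in the controls. It rose 4.38-fold (log2 difference 2.13 ± 0.55 SE, limma adjusted p 0.0257). The call was lost in 7 of 20 alternatives, with adjusted p-values of 0.0809 and 0.104 without mutants 1 and 3, and of 0.0857, 0.0945 and 0.0516 without controls 1, 2 and 3. Its type II partner Krt4 had 47.7, 10.4 and 14.9 in the mutants, against 0, 0 and 4.07 in the controls. Only 4 control reads, all in control 3, and 70 mutant reads stand behind the Krt4 call (log2 difference 3.59 ± 0.93 SE, limma adjusted p 0.0263). Its ratio of means was 17.9, or 9.31 without mutant 1. The Krt4 call was lost in edgeR, at an adjusted p of 0.0628, and without mutant 1, mutant 3, control 1 or control 2, at 0.129, 0.0643, 0.101 and 0.127.

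Krt14, the type I keratin of basal cells, had 680.5, 110.3 and 208 in the mutants, against 44.8, 33.1 and 19.3 in the controls. It rose 10.3-fold with no overlap (log2 difference 2.99 ± 0.63 SE, limma adjusted p 0.00807), or 4.9-fold without mutant 1, the highest. The adjusted p was 0.0788 without control 3. Its type II partner Krt5 was not called. Krt5 had 30.7, 14.6 and 7.44 in the mutants, against 0, 38.5 and 10.2 in the controls, with the groups overlapping (log2 difference 1.08 ± 1.13 SE, limma adjusted p 0.64), and its log2 difference was -0.39 without control 1. Krt5 per Krt14, both per kilobase, came to 0.0348, 0.102 and 0.0277 in the mutants and 0, 0.898 and 0.407 in the controls. Krt15, another type I keratin of basal cells, had 42.03, 68.7 and 49.6 in the mutants, against 0.879, 198 and 46.8 in the controls, with the groups overlapping (log2 difference 1.03 ± 1.21 SE, limma adjusted p 0.678). The sign of the Krt15 difference turned to -0.61 in edgeR and to -0.87 without control 1, and control 2 held the highest value of both Krt5 and Krt15.

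Krt17, a type I keratin known from hair follicles, basal and wounded epithelium, went the other way. It had 152, 165 and 33.9 in the mutants, against 901, 699 and 934 in the controls. All mutants lay below all controls, and Krt17 fell to a 7.21-fold lower mean (log2 difference -3.12 ± 0.51 SE, limma adjusted p 0.00143). Of the 20 alternatives, 1 lost the call, eBayes without trend (adjusted p 0.0716).

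Of the stratified keratins that were not called, Krt10 was the most abundant. Krt10, a type I keratin of the upper epidermis, had 525, 1539 and 1598 in the mutants, against 613, 658 and 462 in the controls, with mutant 1 inside the control range (log2 difference 0.93 ± 0.39 SE, limma adjusted p 0.165). Its type II partner Krt1 had 36.4, 14.6 and 23.2 in the mutants, against 2.64, 11.8 and 1.02 in the controls, with no overlap (log2 difference 2.41 ± 0.84 SE, limma adjusted p 0.0952). Krt79, a type II keratin of the follicle opening, had 78.4, 6.24 and 79.4 in the mutants, against 0.879, 9.62 and 1.02 in the controls, with mutant 2 below control 2 (log2 difference 3.39 ± 1.03 SE, limma adjusted p 0.056). Krt2, a type II keratin of the uppermost epidermis, had 1.14, 0 and 0 in the mutants, against 2.64, 7.49 and 5.09 in the controls (log2 difference -2.15 ± 0.86 SE, limma adjusted p 0.147). It lay lower in each mutant than in each control, on 1 mutant read and 15 control reads in all. Krt9, Krt16, Krt24, Krt42, Krt76, Krt77 and Krt78 reached at most 26.5 in any library and overlapped between the groups.

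Of 9 markers of squamous basal cells other than keratins, 2 were higher, none was lower and 7 were not called. Over all genes tested, 5.34% were higher and 4.08% lower. The median log2 difference of the 9 was 0.21. Their summed normalized counts were 20825 to 27952 in the mutants, against 14969.6 to 19689 in the controls, without overlap. The gap came from the 2 called genes, Serpinb5 and Dsg3, and the sums of the other 7 overlapped. Serpinb5, a serpin of basal epithelium, had 1630.2, 1141 and 2100.5 in the mutants, against 226, 41.7 and 75.4 in the controls (log2 difference 4.12 ± 0.50 SE, limma adjusted p 0.000127). Dsg3, a desmosomal cadherin of stratified epithelium, had 3772, 3840.4 and 965 in the mutants, against 625, 535 and 632 in the controls (log2 difference 2.01 ± 0.43 SE, limma adjusted p 0.00849). Trp63, the defining transcription factor of basal cells, had 39.8, 178 and 109 in the mutants, against 141, 158 and 196 in the controls and was not called (log2 difference -0.82 ± 0.53 SE, limma adjusted p 0.403). The part of such cells in the stratified keratins was not tested.

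Of the 15 hair keratins 2 were higher (13.3%, against 5.34% of all genes tested) and 1 was lower (6.67%, against 4.08%), at a class median of 0.88, or 0.45 with 5 members that had no control read set at their bound. Krt87, a type II hair keratin, had normalized counts of 1113, 684 and 2186 in the mutants, against 109, 121 and 227 in the controls. It rose 8.72-fold with no overlap (log2 difference 3.03 ± 0.43 SE, limma adjusted p 0.000443). In the transcripts of GENCODE M21, 36.9% of its 50-base stretches also occur in other genes, so its reads may be shared with them.

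Krt84, a type II keratin of the hair family known from the tongue, had 1292, 119 and 511 in the mutants, against 19.3, 11.8 and 40.7 in the controls. The mutants spread widely, mutant 1 being the highest, and all lay above the controls. Krt84 rose 26.7-fold (log2 difference 4.28 ± 0.74 SE, limma adjusted p 0.00211). The ratio was 13.1 without mutant 1 and 41.2 without control 3.

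Krt83, a type II keratin of the hair cortex, had 401, 856 and 671 in the mutants, against 2042, 1050.0 and 2973 in the controls. It fell to a 3.14-fold lower mean with no overlap (log2 difference -1.59 ± 0.38 SE, limma adjusted p 0.016). The call was lost without mutant 1, control 1 or control 3, at adjusted p-values of 0.0637, 0.0901 and 0.149. Of its 50-base stretches, 22.1% also occur in other genes, mostly Krt86.

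Among the uncalled hair keratins, Krt86 of the hair cortex had 13.6, 14.6 and 114 in the mutants, against 2.64, 0 and 13.2 in the controls (log2 difference 2.99 ± 1.06 SE, limma adjusted p 0.0994). Its mean in the mutants came mainly from mutant 3, and mutants 1 and 2 lay just above control 3. Krt25 of the inner root sheath had 52.3, 58.3 and 23.2 in the mutants, against 12.3, 4.28 and 29.5 in the controls (log2 difference 1.72 ± 0.76 SE, limma adjusted p 0.193), with the groups overlapping. Krt28 of the same sheath had 12.5, 7.28 and 0 in the mutants and no read in the controls (limma adjusted p 0.212). The other 9 (Krt26, Krt34, Krt35, Krt36, Krt39, Krt72, Krt75, Krt81 and Krt82) reached at most 69.5 in any library and overlapped.

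Of 9 hair follicle and skin markers other than keratins, 2 were higher and 2 were lower, and 5 were not called. Over all genes tested, 5.34% were higher and 4.08% lower. The summed normalized counts of the 9 markers were 864 to 2556 in the mutants, against 828 to 1286 in the controls, with the groups overlapping. Padi3, a peptidylarginine deiminase of the hair follicle, had 358, 127 and 551 in the mutants, against 17.6, 5.35 and 10.2 in the controls (log2 difference 4.74 ± 0.64 SE, limma adjusted p 0.000326). Msx2, a homeobox factor of the hair matrix, had 485, 421 and 1794 in the mutants, against 137, 182 and 142 in the controls (log2 difference 2.23 ± 0.48 SE, limma adjusted p 0.00896). Both lay wholly above the controls. Tchh, the inner root sheath protein trichohyalin, had 144, 237 and 156 in the mutants, against 401, 506 and 621 in the controls (log2 difference -1.51 ± 0.35 SE, limma adjusted p 0.0141). S100a3, a calcium-binding protein of the hair cuticle, had 31.8, 24.96 and 6.62 in the mutants, against 182, 306 and 369.7 in the controls (log2 difference -3.88 ± 0.60 SE, limma adjusted p 0.00094). Hoxc13, the homeobox factor that drives hair shaft keratins, was not called, with 0 reads in each mutant, against 5.27, 2.14 and 21.4 in the controls. Krtap11-1, a hair shaft matrix protein, had 0 in each library but control 3, at 4.07. The part of hair-bearing skin in the hair keratins was not tested.

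Of the 5 unplaced keratins, Krt80 was higher and Krt23 lower. Krt80, a type II keratin found near desmosomes of many epithelia, had normalized counts of 5272, 2654 and 3425 in the mutants, against 1671, 1484 and 1646 in the controls. It rose 2.36-fold with no overlap (log2 difference 1.18 ± 0.26 SE, limma adjusted p 0.0114), and the adjusted p was 0.0556, 0.0806 and 0.0724 without mutant 1, control 2 or control 3.

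Krt23, a type I keratin induced by histone deacetylase inhibitors in human cells, had 677, 1145 and 542 in the mutants, against 2776, 1567 and 3533 in the controls. It fell to a 3.33-fold lower mean with no overlap (log2 difference -1.73 ± 0.34 SE, limma adjusted p 0.00537). Without control 3 the adjusted p was 0.0755. Krt222 had 38.6, 88.4 and 57.9 in the mutants, against 104, 178 and 158 in the controls, lower in each mutant than in each control but short of the threshold (log2 difference -1.28 ± 0.49 SE, limma adjusted p 0.125). Krt90 had 17.04, 15.6 and 0 in the mutants, against 21.97, 9.62 and 23.4 in the controls, and Krt88 never rose above 3.21 (log2 difference -0.29 ± 0.92 SE, limma adjusted p 0.894).

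Uterine gland genes moved beside the 3 lower keratins. The counts of these markers stand against 5.34% higher and 4.08% lower over all genes tested. Of 9 gland markers 5 were lower, 2 (Aldh1a1 and Sox9) were higher, and the summed normalized counts were 14447 to 20416 in the mutants, against 124439 to 316012 in the controls. Prss29, a serine protease secreted by the glands, had 1024, 614 and 944 in the mutants, against 66223, 131136 and 185034 in the controls. The part of gland cells in the lower keratins was not tested. Of 9 stroma markers 3 were lower and none higher, and of 8 mesothelium markers 1 (Wt1) was lower and none higher. Of 4 oviduct markers 2 (Ovgp1 and Pax2) were higher, with sums of 14030.0 to 26064 in the mutants, against 3488 to 5341 in the controls. Smooth muscle markers gave 1 lower of 8, leukocyte markers 1 lower of 9 and adipocyte markers none called of 5, with adipocyte sums of 642 to 3992 in the mutants, against 207 to 4837 in the controls. Of 10 trophoblast and embryo markers 1 (Elf5) was higher and 1 (Tfap2c) lower. Counts of 0 or 1 in lists of this size are near the shares over all genes.

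The letter-suffixed keratins fall outside the rule and are given for comparison. Krt6b, a type II keratin of stressed epithelium, had 3573, 310.0 and 58.7 in the mutants and no read in the controls. Mutant 1 was by far the highest. Of Krt6b sequence, 50.1% of the 50-base stretches occur in other genes, mostly Krt6a. Krt6a had 31.8, 41.6 and 0 in the mutants, against 11.4, 4.28 and 19.3 in the controls, with the groups overlapping. The pseudogene Krt8-ps, which shares 57.4% of its stretches with Krt8, had 106, 48.9 and 168 in the mutants, against 18.5, 13.9 and 16.3 in the controls, far below Krt8. Krt33a and Krt33b were not analysed here.

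Keratin genes lie in a type I cluster on chromosome 11 and a type II cluster on chromosome 15, which also holds the type I gene Krt18. In the RefSeq gene order, Krt83, lower in the mutants, is followed by Krt84, which was higher. The other lower genes, Krt17 and Krt23, lie between uncalled genes. Krt80, Krt7 and Krt87, all higher, open the chromosome 15 cluster, and Krt8 and Krt18, both higher, close it. On chromosome 11, Krt19 and Krt14 were higher, and Krt17, lower, is the next but one after Krt14. Krt9, between Krt19 and Krt14, was not called. It had 0 reads in each library but control 2, which had 7. Of 22 type I genes 5 were higher (22.7%) and 2 lower (9.09%), and of 21 type II genes 6 were higher (28.6%) and 1 lower (4.76%), against 5.34% higher and 4.08% lower over all genes tested. With 1 or 2 genes behind them, the shares of lower genes are not set apart from those over all genes.

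**Figure D5:**
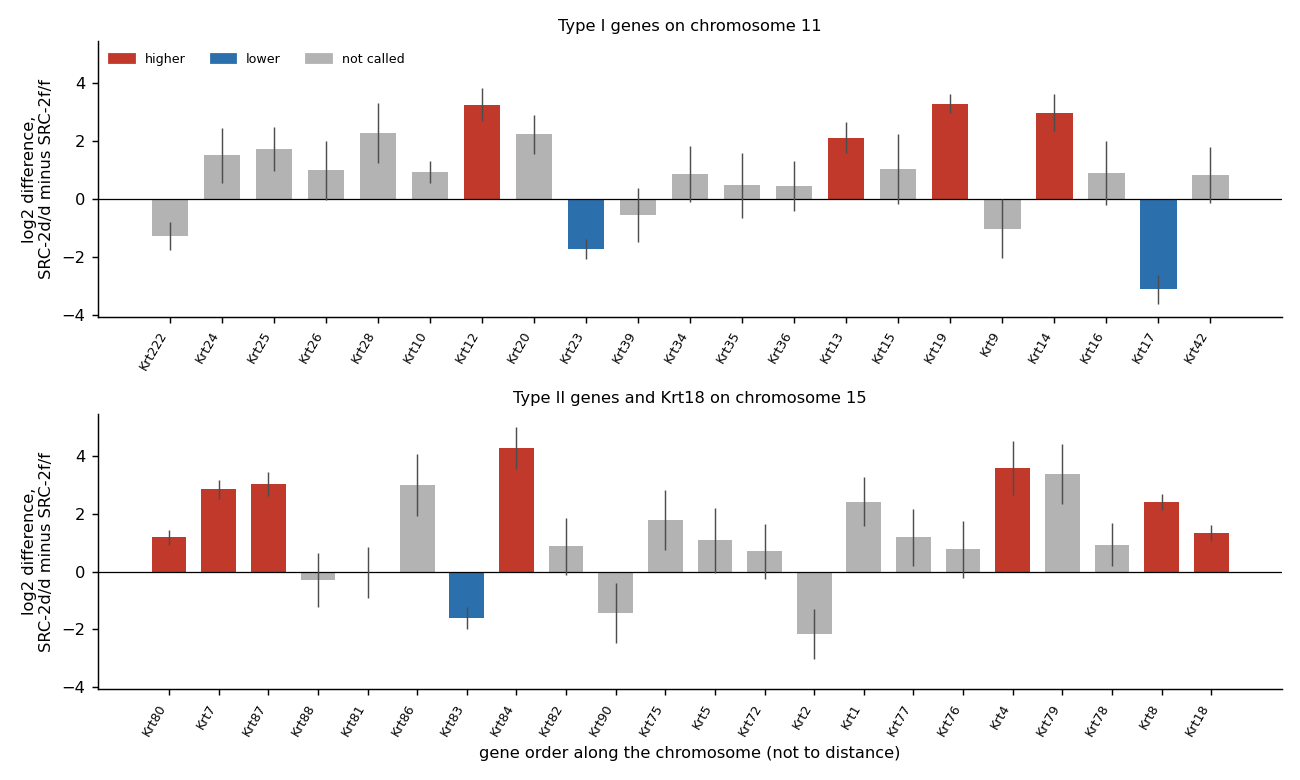
Log2 difference, SRC-2d/d minus SRC-2f/f (bars, with standard errors as lines, n = 3 mice each), of the keratins in their order along the type I cluster on chromosome 11 and the type II cluster on chromosome 15, not to distance. Higher genes are red, lower genes blue and uncalled genes grey. Krt17 and Krt83 point down beside upward neighbours, of which Krt84 beside Krt83 was called and those of Krt17 were not.

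Genes that anchor keratins to the cell surface were measured beside the family, and the counts of these lists stand against 5.34% higher and 4.08% lower over all genes tested. Of 18 desmosome and plakin linker genes 11 were higher and none lower, at a median log2 difference of 1.45. Dsp, the plakin that ties keratin filaments to desmosomes, had 44491, 29971 and 69156 in the mutants, against 6678, 5122 and 5526 in the controls (log2 difference 2.98 ± 0.28 SE, limma adjusted p 1.14e-05). Dsc2, a desmosomal cadherin, had 9657, 8140.5 and 25669.5 in the mutants, against 1273, 859.7 and 1099 in the controls (log2 difference 3.57 ± 0.36 SE, limma adjusted p 2.25e-05). Evpl, the plakin envoplakin, had 9969.7, 6857 and 9128 in the mutants, against 2277, 1769 and 1415 in the controls (log2 difference 2.26 ± 0.24 SE, limma adjusted p 4.89e-05). None of the 3 overlapped between the groups.

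A list of 13 tested genes tied to keratin organization gave 5 higher and none lower, at a median of 0.24. Sfn, a 14-3-3 protein that binds phosphorylated keratins, had 8237, 5299.8 and 7044 in the mutants, against 1266, 989 and 997 in the controls (log2 difference 2.65 ± 0.24 SE, limma adjusted p 9.55e-06). Nectin4, an adhesion protein of epithelia, had 7575, 4526 and 9211 in the mutants, against 2057, 1815 and 1641 in the controls (log2 difference 1.90 ± 0.27 SE, limma adjusted p 0.000426), and Krtcap3, named as a keratinocyte-associated protein, had 6741, 3321 and 7629 in the mutants, against 1825, 1667 and 1316 in the controls (log2 difference 1.80 ± 0.30 SE, limma adjusted p 0.00154). Nectin4 and Krtcap3 are not known to bind filaments.

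The cornified envelope list split. Of its 18 tested genes 3 were higher and 4 lower, at a median of -0.39. The 3 higher genes were Sprr2f, Sprr1a and Ivl, all precursors of the envelope. Sprr2f had 269918, 255129 and 124204 in the mutants, against 551, 376 and 817 in the controls (log2 difference 8.53 ± 0.32 SE, limma adjusted p 1.45e-08). Sprr1a had 2929, 794 and 2556 in the mutants, against 20.2, 65.2 and 35.6 in the controls (log2 difference 5.61 ± 0.53 SE, limma adjusted p 1.26e-05). Crct1 of the epidermal differentiation complex had 1.14, 0 and 7.44 in the mutants, against 178, 276 and 191 in the controls (log2 difference -6.34 ± 0.79 SE, limma adjusted p 0.000148), and the other lower genes, named after their values were seen, were Alox12b, Sbsn and Krtdap.

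Of 17 tested transcription regulators of stratified epithelium 7 were higher and 2 (Tfap2c and Ets1) lower, at a median of 0.43. Ehf, an ETS factor of epithelia, had 36610.3, 27775 and 47144 in the mutants, against 6509.7, 4597 and 5072 in the controls (log2 difference 2.77 ± 0.24 SE, limma adjusted p 6.8e-06). Grhl2, a grainyhead-like factor, had 14307, 11420.2 and 18812 in the mutants, against 2745, 2644 and 2539.9 in the controls (log2 difference 2.46 ± 0.23 SE, limma adjusted p 1.08e-05). Elf3, another epithelial ETS factor, had 48822, 17278 and 94212 in the mutants, against 1974, 1439 and 2335 in the controls (log2 difference 4.52 ± 0.44 SE, limma adjusted p 2.04e-05).

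Among 16 intermediate filament genes other than keratins, 4 were lower and 1 was higher, at a median of -0.87. Des, the filament protein of muscle, had 91082, 127990.0 and 67591 in the mutants, against 188691, 211658 and 256502 in the controls (log2 difference -1.23 ± 0.27 SE, limma adjusted p 0.0107). Nes, nestin, had 2001, 5772 and 1409 in the mutants, against 7862, 7685 and 9394 in the controls (log2 difference -1.71 ± 0.39 SE, limma adjusted p 0.0128). Gfap, known from astrocytes, had 315, 451 and 777 in the mutants, against 187, 128 and 135 in the controls (log2 difference 1.69 ± 0.39 SE, limma adjusted p 0.0145) and was the 1 that rose. The other 2 that fell, named after their values were seen, were Vim, the filament protein of stromal cells, and Synm.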

How the data were processed

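Total RNA of 3 SRC-2d/d and 3 SRC-2f/f gestation day 5 uteri was made into stranded poly(A) mRNA libraries, per the labels' protocols. The submitters' processing notes name HISAT2, HTSeq and DESeq as the tools of the authors. Tool versions, genome build, annotation, strand setting and the handling of reads that map to several genes were not stated in the sources at hand. The deposited table is titled FPKM, but its values are a signal of gene reads divided by 1 size factor per library, since 100% of the values in each library are whole multiples of the smallest one, within a tolerance of 1e-06 of a read. They are called normalized counts and are not corrected for length.

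Genes whose mean reached 0.5 (36154 of them) were tested with limma 3.58.1 (R 4.3.3, lmFit and eBayes with trend, two-sided) on log2(normalized count + 1), with genotype as the only term. On this scale differences of low genes are understated. Adjusted p-values are Benjamini-Hochberg values over all tested genes and, unless another tool is named, come from limma; genes under 0.05 were called. The limma p-values weigh each group difference against the spread between these mice, moderated by a trend over all tested genes. On the recovered whole reads, the quasi-likelihood test of edgeR 4.0.16 called 1815 of 26879 genes higher and 1057 lower, and DESeq2 1.42.0 called 2534 higher and 1826 lower. Other alternatives were pseudocounts of 0.1 and 0.5, other filters (none, a mean of at least 2 or 10), 3 other scalings, eBayes without trend or robust, a block for the replicate number, and leaving out 1 library at a time.

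Transcript lengths are those of the GENCODE M21 transcript with the longest coding part, and gene order and promoters come from RefSeq (GRCm38.p6). The text names each called keratin, up to 3 uncalled keratins per class with the smallest p, those with a mean of at least 100, and up to 3 called genes per pathway list with the smallest adjusted p. Of the marker lists it names genes that were called or at or near 0. Krt5 and Krt15, as basal cell keratins beside Krt14, and Trp63, as a defining marker, were named after their values were seen. Members, classes, lists and tests were chosen with earlier results of these data known. Of the symbols in the class lists, 8 had no value here and were not analysed.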

Additional observations from a re-analysis of the deposited data

How the results depend on the processing

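Over 20 alternatives, with the comparison against epithelial markers kept apart, the 14 called keratins kept direction and call in 246 of 280 checks, lost the call in 34 and reversed in 0. The loss was greatest in eBayes without trend, which left 683 genes higher and 315 lower, 4 keratins higher and 0 lower, 0 stratified and 1 hair keratin higher; Ncoa2 stayed at -0.91 with an adjusted p of 0.119. The cause was not tested. Leaving out each library in turn gave 1013 to 2598 genes higher and 315 to 2813 lower, 7 to 12 keratins higher and 1 to 3 lower, 3 to 5 simple, 2 to 5 stratified and 2 to 2 hair keratins higher, and an Ncoa2 difference of -0.95 to -0.85. Setting keratins against epithelial markers lowers every difference by the same amount, so any rise smaller than that amount must change sign. The called Krt18 and Krt80 reversed in this way to -0.28 and -0.44. So did 15 of the 29 uncalled keratins, among them Krt10 (-0.70), Krt5 (-0.55) and Krt15 (-0.60). With a library left out, 8 of the 29 uncalled keratins reversed at least once (Krt5, Krt15, Krt35, Krt36, Krt39, Krt76, Krt81 and Krt88). Krt5 ranged from -0.39 to 2.27 and Krt15 from -0.87 to 2.49, both negative without control 1; Krt88 ranged from -0.78 to 0.25, positive without mutant 3 (0.07) and control 2. Under the other alternatives 3 reversed, Krt15 at -0.61 in edgeR and in DESeq2, and Krt35 and Krt81.

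Same-numbered mice did not deviate together throughout: correlations across genes were 0.376, 0.0146 and 0.0274 for numbers 1, 2 and 3, and mutant 2 correlated best with control 3 (0.341), so the numbers were not taken as pairs. With the replicate number as a block, limma called 2104 genes higher and 1708 lower, and 12 keratins higher and 3 lower; edgeR with the block called 10 and 2 keratins.

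With 3 mice a group, keratins of a few reads, such as Krt4 and Krt2, are poorly measured, and the floor of 3 reads covers counting error only. Reads shared between similar keratins could not be assigned here.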
